A study of Homo sapiens with 6 samples.

Results

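The MHC class I antigen presentation genes described here are 9 genes taken by name, HLA-B, HLA-C, HLA-E, HLA-F, B2M, TAP1, TAP2, TAPBP and NLRC5, and all 9 were found among the 19792 genes listed by symbol. RNA-seq was performed on BT-549 cells, a human triple-negative breast cancer line, that carry an shRNA against WDR5 under a doxycycline-inducible promoter. The 3 vehicle cultures received 0.1% DMSO and the 3 DOX cultures received 500 ng/ml doxycycline (DOX), for 7 days by the study's methods, and both groups carry the same 1 shRNA. Cells with a control shRNA were not analysed here. The value analysed is the authors' mean over all 6 libraries, vehicle and DOX together, of read counts normalized for library size. Levels are therefore those of the cells under both treatments taken as 1 pool. No value of a single library was analysed here, so no SD, no n and no test of DOX against vehicle stands beside any level, and the silencing of WDR5, listed with a mean normalized count of 1143, was not checked by library.

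Class I molecules show peptides from inside the cell to CD8 T cells. A heavy chain pairs with beta-2 microglobulin, and the pair is loaded in the endoplasmic reticulum with peptides that the proteasome has made and the TAP transporter has brought in. Tapasin, the product of TAPBP, holds the empty heavy chain at the transporter. NLRC5 has no DNA-binding domain of its own and is known to activate class I promoters through an enhanceosome of RFX, CREB/ATF and NF-Y factors on the X and Y boxes, while IRF and NF-κB factors bind other elements of the same promoters. Loss of B2M, of the TAP transporter or of classical heavy chains such as HLA-B and HLA-C is a known way for tumor cells to evade T cells.

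Promoter sequences are shown for B2M, HLA-C, HLA-B and HLA-F. These genes span the highest to the lowest level of the 9, and the first 3 share a pair of motifs. HLA-F lacks the pair, as do TAP1, TAP2 and TAPBP. Each line gives the 180 bases before the RefSeq start site in GRCh38.p14, 5′ to 3′ on the strand of the gene, and is the reference sequence, not that of BT-549 cells. B2M lies at chr15:44711337-44711516 on the plus strand, HLA-C at chr6:31272093-31272272 and HLA-B at chr6:31357180-31357359 on the minus strand, and HLA-F at chr6:29723254-29723433 on the plus strand. Capitals mark matches to the 4 motifs searched on both strands, which were the X2 core TGACG, the Y box CCAAT, the IRF pair (GAAA repeated after a gap of 2 bases of any kind) and the degenerate NF-κB consensus. In reverse, the Y box reads ATTGG.
B2M: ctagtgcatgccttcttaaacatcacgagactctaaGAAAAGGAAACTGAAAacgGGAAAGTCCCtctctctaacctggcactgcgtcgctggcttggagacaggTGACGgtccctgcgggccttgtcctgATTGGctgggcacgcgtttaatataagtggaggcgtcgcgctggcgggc
HLA-C: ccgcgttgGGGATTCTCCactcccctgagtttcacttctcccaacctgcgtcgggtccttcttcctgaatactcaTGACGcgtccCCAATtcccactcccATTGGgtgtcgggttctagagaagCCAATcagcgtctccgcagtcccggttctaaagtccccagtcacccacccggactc
HLA-B: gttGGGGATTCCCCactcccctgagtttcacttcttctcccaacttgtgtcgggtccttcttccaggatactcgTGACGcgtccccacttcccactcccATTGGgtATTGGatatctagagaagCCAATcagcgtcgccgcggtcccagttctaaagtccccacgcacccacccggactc
HLA-F: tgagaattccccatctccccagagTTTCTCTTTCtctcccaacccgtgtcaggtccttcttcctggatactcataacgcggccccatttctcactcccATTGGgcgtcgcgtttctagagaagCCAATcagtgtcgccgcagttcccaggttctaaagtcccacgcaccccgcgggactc

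An X2 core followed by ATTGG was found in HLA-B and HLA-C with 20 bases between them and in B2M with 21 bases. The core began 106 bases before the start site in HLA-B, 105 bases in HLA-C and 75 bases in B2M. Of 35116 promoters in the RefSeq table, which run from 250 bases before the start site to 50 after it, 53 (0.151%) held this pair at a spacing of 20 or 21 bases on either strand, a spacing that was chosen after these promoters were seen. The HLA-F promoter held ATTGG 82 bases before the start site, but not the X2 core. At the same spacing from that box it differed from the core by 1 substitution, G2A, with positions counted from 1 at the first base of TGACG. TAP1, TAP2 and TAPBP, whose levels given further on lay above the median gene, also lacked the pair. Whether the pair bears on level was not tested. None of the 45 other genes of the pathway lists given further on with a promoter in the table held the pair. At a share of 0.151% over all promoters, that count says little about the lists.

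The table held promoters of 7 of the 9 genes, and none for HLA-E or NLRC5. A gene was counted if any of its promoters matched, whereas the shares given are of single promoters. TAP1 had another promoter with none of the 4 motifs. An IRF pair was found in 5 of the 7 (B2M, TAP1, TAP2, TAPBP and HLA-F), against 3.57% of all promoters. An NF-κB match was found in 5 of the 7 (B2M, HLA-B, HLA-C, TAP1 and TAPBP), against 5.91% of all promoters. The short X2 core and Y box are common, in 24.6% and 34.6% of promoters, and were found in 4 and 5 of the 7. B2M was the only one of the 7 with all 4 motifs, which 3 promoters of the table held. In HLA-B, 2 of the NF-κB matches overlap, and in TAP1, TAPBP and B2M the 2 IRF pairs overlap by 4 bases. A match is a run of letters and not evidence that a factor binds there. The lack of a match is likewise not evidence that a site is absent, since variants of a motif were not searched.

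Levels of different genes are compared per length, as the mean normalized count per kilobase of the longest transcript in GENCODE 44. Percentiles are placed among the 13219 genes that averaged 10 or more normalized counts and had a length, whose median was 180 per kilobase. All 9 genes passed that minimum of 10. By this scale 7 of the 9 genes lay above the median gene, 5 of them in the top 5% and 6 in the top 10%. Their own median was 2631 per kilobase. Together the 9 genes held 0.387% of all normalized counts, and B2M alone made up 42.4% of their sum.

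**Figure D1:**
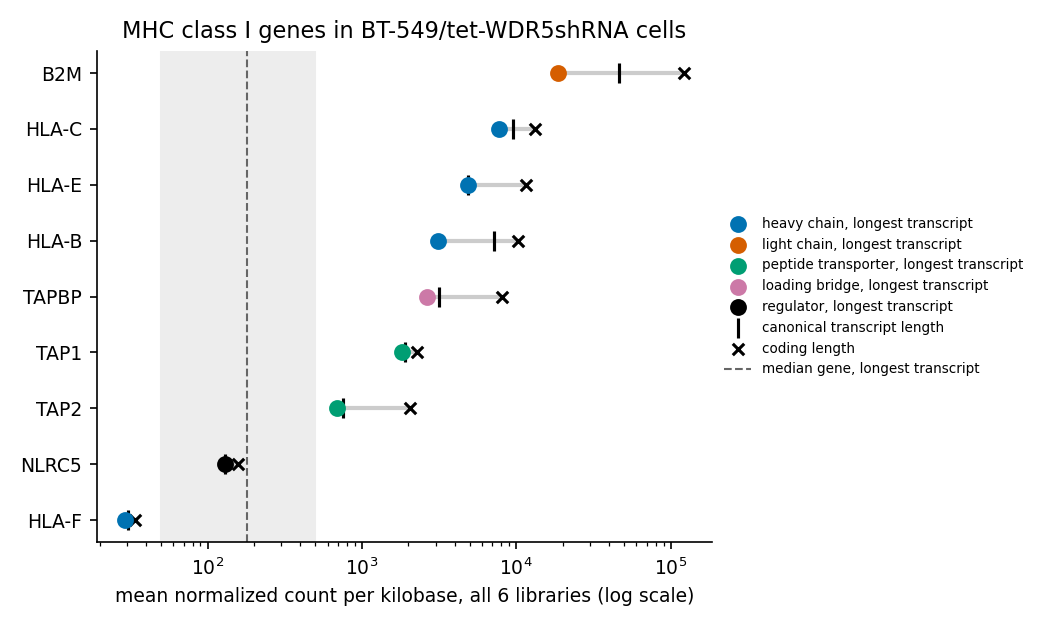
Mean normalized count per kilobase (log axis) of the 9 genes over all 6 libraries, with filled points for the longest transcript, ticks for the canonical transcript and crosses for the coding length; the dashed line is the median gene and the grey band the middle 50% of genes. B2M is highest at 18707 and HLA-F lowest at 29.1 by the longest transcript, and the order of B2M, HLA-C, TAPBP, TAP1, TAP2, NLRC5 and HLA-F is the same by all 3 lengths.

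B2M, the light chain shared by all class I molecules, had the highest level of the 9 genes. In GRCh38 with the GENCODE 44 annotation, which all gene positions here use, it spans bases 44711358 to 44718851 of chromosome 15. The authors' mean normalized count was 43568, or 18707 per kilobase, and it ranked 31 among the 13219 genes. That level is 104 times the median gene.

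The heavy chains differed in level by more than 2 orders of magnitude. HLA-C, a classical heavy chain on chromosome 6 from 31268749 to 31272130, had a mean normalized count of 14610, or 7771 per kilobase. HLA-E, a non-classical chain that presents leader peptides of other class I chains to NKG2A receptors, lies on chromosome 6 from 30489509 to 30494194 and had a mean normalized count of 12339, or 4842 per kilobase. HLA-B, a classical chain on chromosome 6 from 31353872 to 31367067, had a mean normalized count of 11072, or 3121 per kilobase. These 3 chains were at percentiles 99.1, 98.3 and 97.0.

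HLA-F, a non-classical chain on chromosome 6 from 29722775 to 29738528, stood apart from the other 3. Its mean normalized count was 44.9, or 29.1 per kilobase, at percentile 18.4. HLA-E was 167 times as high per kilobase, and between 160 and 406 times under the other scales of length. Of the summed level of these 4 chains per kilobase, HLA-C held 49.3%, HLA-E 30.7%, HLA-B 19.8% and HLA-F 0.184%.

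The order of the 3 high chains depended on the length used. HLA-B was 0.402 times HLA-C per kilobase of the longest transcript, but 0.761 times by the canonical transcript, since the longest HLA-B transcript has 3547 bases and the canonical one 1536. By the canonical transcript HLA-B, at 7208 per kilobase, was above HLA-E, at 4842. No spread between libraries was analysed, so whether HLA-B, HLA-C and HLA-E differ beyond that spread is unknown. Levels of heavy chains also rest on alignment of reads to the reference alleles.

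B2M was 1.19 times the sum of the 4 heavy chains per kilobase. The sum was 15764 per kilobase, and further heavy chains were not analysed here. By the canonical transcripts the ratio was 2.14 and by the coding lengths 3.48, because B2M has a coding length of 357 bases against a longest transcript of 2329. B2M was the higher side by each of these lengths.

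TAP1 and TAP2 encode the subunits of the peptide transporter, which work as a dimer. TAP1 lies on chromosome 6 from 32845209 to 32853816 and had a mean normalized count of 5104, or 1827 per kilobase, at percentile 94.0. TAP2 lies on chromosome 6 from 32821833 to 32838739 and had a mean normalized count of 4245, or 685 per kilobase, at percentile 81.8. TAP1 was thus 2.67 times TAP2 per kilobase of the longest transcript, but 1.10 times per kilobase of coding length and 1.20 times with no division by length. The canonical TAP2 transcript has 5643 bases, of which 2058 are coding.

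TAPBP, which encodes tapasin, lies on chromosome 6 from 33299694 to 33314284. Its mean normalized count was 10874, or 2631 per kilobase, at percentile 96.2, and its level was 1.44 times that of TAP1. By coding length it was 3.56 times as high. TAPBPL encodes TAPBPR, a relative of tapasin that also edits peptides, and was at 255 per kilobase. The level of TAPBP was 10.3 times that of TAPBPL, and between 8.71 and 19.0 times with other lengths or no division by length.

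NLRC5, the activator of class I promoters, lies on chromosome 16 from 56989485 to 57083531. Its mean normalized count of 881 gave 129 per kilobase, at percentile 42.1, or 0.718 times the median gene. It lay above the median, at percentile 56.2, when counts were not divided by length. RFX5, the DNA-binding partner in the complex on the X box, was 6.04 times as high as NLRC5, at 779 per kilobase. That ratio ranged from 3.16 with no division by length to 9.59 by coding length.

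Stretches shared with other genes bear on how far reads can be told apart. Of the 50-base stretches of the canonical transcripts, 6.77% were shared with transcripts of another gene for HLA-C, 6.16% for HLA-E, 2.56% for HLA-B and 1.89% for HLA-F, and none of 894 for B2M or of 6732 for NLRC5. For 100-base stretches the shares were 0.277% for HLA-C and 0.613% for HLA-E, and 0 of 1437 for HLA-B and 0 of 1381 for HLA-F. TAP2 shared 34.7% of its 100-base stretches, all with 1 other gene model of the annotation. TAP1 shared 1.18% of 50-base stretches and 0 of 2586 stretches of 100 bases. The level of TAP2 may thus be less certain than that of TAP1. Whether the annotation used by the authors held the gene model shared with TAP2 was not checked. TAPBP shared 7.09% of 50-base and 0 of 3351 100-base stretches. How reads with several matches were counted is not given in the sources used here.

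Of the 9 genes, 7 lie in the MHC on chromosome 6, within 3.59 Mb from the start of HLA-F to the end of TAPBP. Among the 95 genes of that stretch that reached the same minimum of 10 and had a length, the median was 364 per kilobase, which was 2.03 times the median of all genes. HLA-C, HLA-E, HLA-B and TAPBP ranked 4, 5, 6 and 10 of the 95, and 6 of the 7 were above the median of the stretch. HLA-F was the one below it. TAP1 and PSMB9, a proteasome subunit gene on the opposite strand, have RefSeq start sites 488 bases apart. The level of TAP1 was 7.88 times that of PSMB9 per kilobase and 8.22 times with no division by length. TAP2 and PSMB8 lie on the same strand with start sites 5.308 kb apart, and TAP2 was 0.801 times PSMB8 per kilobase but 2.09 times with no division by length.

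**Figure D2:**
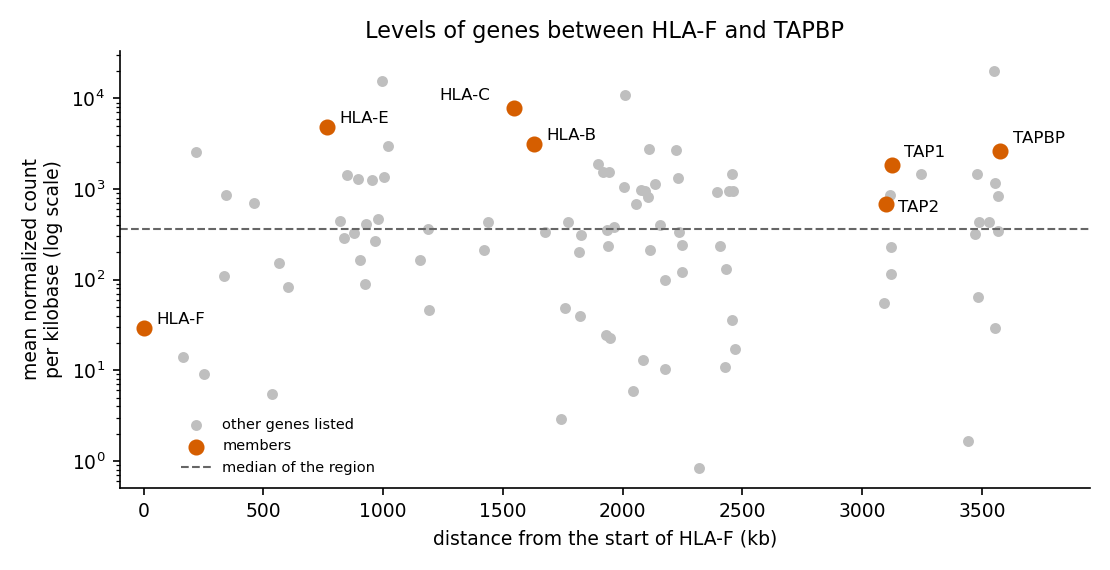
Mean normalized count per kilobase (log axis) of the 95 genes between HLA-F and TAPBP against the distance from the start of HLA-F in kb, with the 7 genes described here in orange and the other genes in grey. HLA-C, HLA-E and HLA-B stand well above the median of 364 (dashed line), TAP2 at 685 above it, and HLA-F at 29.1 below it.

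The pathway around these genes was described with 7 lists of other genes, given by how many reached the minimum of 10. All 10 genes of peptide supply were, with a median of 492 per kilobase, and 8 of them lay above the median gene. PSME1, a subunit of the proteasome activator PA28, was the highest at 4919. ERAP2, a peptidase that trims peptides in the endoplasmic reticulum, was the lowest at 38.3, whereas ERAP1 was at 881.

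Interferon exchanges the catalytic subunits of the proteasome, and the exchanged subunits were below their constitutive counterparts. PSMB8, at 855 per kilobase, was 0.300 times PSMB5, its counterpart. PSMB9, at 232, was 0.124 times PSMB6, and PSMB10, at 382, was 0.0703 times PSMB7. With no division by length the same 3 ratios were 0.637, 0.381 and 0.0698. All 3 constitutive subunits had levels of at least 1869 per kilobase.

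The chaperones of loading had the highest median of the lists, 7211 per kilobase over 4 genes. CALR, encoding calreticulin, was at 35457 per kilobase, CANX, encoding calnexin, at 9006 and PDIA3, encoding ERp57, at 5416. CALR was 67404 in mean normalized count, above the 43568 of B2M. These 3 chaperones fold many glycoproteins besides class I chains.

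The 12 regulators of class I promoters had a median of 401 per kilobase, and 11 of them lay above the median gene. RELA, a subunit of NF-κB, was the highest at 862 and CREB1, a factor of the X2 box, the lowest at 162. NLRC5, at 129, was below all 12 per kilobase, although RFXAP had a lower mean normalized count, 426 against 881. Of the 7 interferon receptors and kinases, IFNGR1 was the highest at 2106 and IFNAR2 the lowest at 60.8.

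The other class I-like chains had a low median, 42.7 per kilobase over the 6 of 7 that reached 10. Of these 6, 2 lay above the median gene. MICB, a stress ligand of NKG2D, was the highest at 438, and CD1D, which presents lipids, was the lowest at 2.70. HLA-G was listed with a mean normalized count of 9.11. HLA-F, at 29.1 per kilobase, lay within the range of these chains and not of HLA-B, HLA-C and HLA-E.

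Class II genes were near or under the minimum. Of 9 that were listed, 7 had a mean normalized count under 10. HLA-DMA, which helps to load class II molecules, was at 9.56, HLA-DRA, a class II chain, at 2.92 and HLA-DQA1 at 0.172. Only CD74 and CIITA, the class II counterpart of NLRC5, passed, with mean normalized counts of 14.3 and 16.7.

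**Figure D3:**
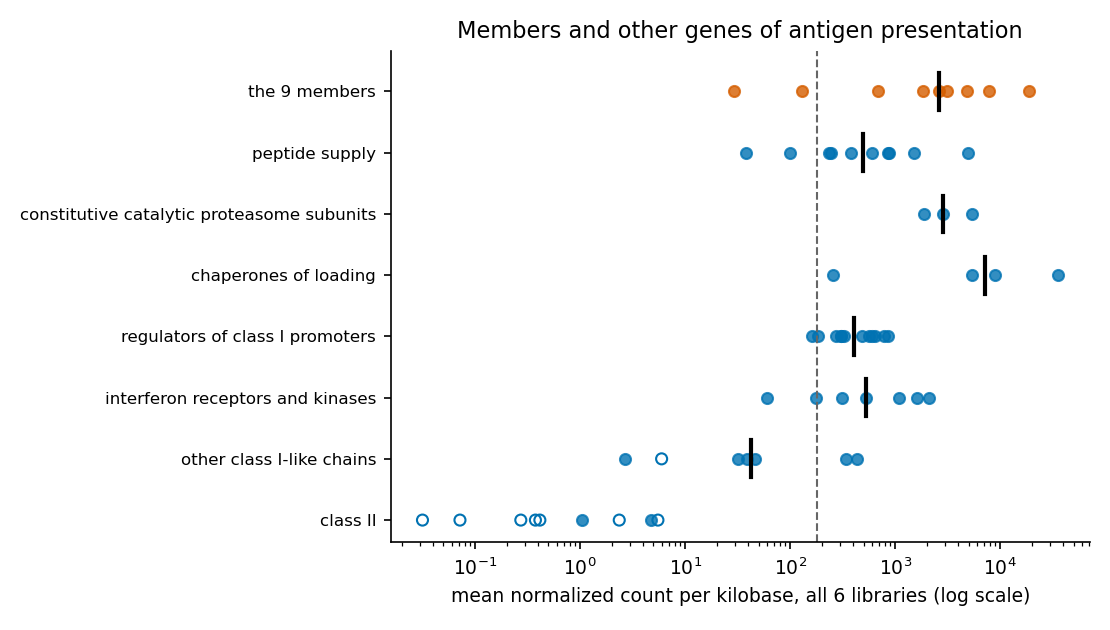
Mean normalized count per kilobase (log axis) of the 9 genes in orange and of 7 lists of other antigen presentation genes in blue, with open points for a mean normalized count under 10, bars for medians over at least 3 genes at or above 10, and a dashed line for the median gene at 180. The chaperones have the highest median at 7211, and class II genes lie under 6 per kilobase.

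Markers of the cell line and of other cells were listed beside these levels. The 5 mesenchymal markers had levels from 1019 to 17923 per kilobase. ESR1 and PGR, the hormone receptors that triple-negative cells lack, had mean normalized counts of 0.790 and 0.801, and EPCAM, an epithelial marker, was at 1.30. The other epithelial markers CDH1, KRT8 and KRT18 were at 59.6, 57.3 and 435, and the receptor gene ERBB2 was at 1221. Of 6 immune markers, whose cells express class I highly, 4 were listed, with PTPRC the highest at a mean normalized count of 44.7, CD14 at 24.0, and LYZ and ITGAM at 0.316 and 2.58. In a bulk sample, a few cells with a high level and many cells with a low one cannot be told apart. The 3 endothelial markers were at 2.86 or less.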

How the data were processed

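The RNA-seq data (3 vehicle and 3 DOX cultures) were analysed from 1 deposited table. By the paper and the submitters' processing notes, the authors aligned stranded mRNA libraries to GRCh38 with STAR, counted reads per gene and normalized them with DESeq2. The authors deposited this signal, a normalized count, as 1 mean over the 6 libraries. The table's other columns hold the authors' own comparison of DOX with vehicle (a log2 fold change, its error, a statistic and p-values) and were not used. The means sum to 26551206, and library depths are unknown. The gene counter is not given in the sources used here.

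Levels were divided by the longest transcript of GENCODE 44 on GRCh38. Of 19792 symbols, 17921 matched it directly, 696 through a RefSeq synonym and 1175 not. Gene lengths cover 97.6% of the 13548 genes that averaged 10 or more. The genes described and the lists were chosen with earlier results of these data known. From each list the highest and lowest genes by level and those in a ratio are named, and RFXAP, HLA-G, HLA-DRA, CANX, PDIA3 and ERAP1 were added after their values were seen. Levels of CD74 and CIITA were named because 2 genes alone passed. Promoter sequences came from RefSeq (GRCh38.p14). Some genes of the lists are not reported here. The design planned a count test, which these values do not allow. Alternatives were other lengths, other minimums and symbol matching. Percentiles and motif matches were tested on simulated data. Python 3.11.15, pandas 2.3.3, numpy 2.4.6, scipy 1.17.1 and matplotlib 3.10.9 were used.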

Additional observations from a re-analysis of the deposited data

How the results depend on the processing

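The ratio of TAP1 to TAP2 was 1.20 with no length division, 1.10 by coding length, 2.53 by the canonical transcript length and 2.63 by the merged exon length. For B2M to the summed heavy chains the same 4 settings gave 1.14, 3.48, 2.14 and 1.12. For HLA-B to HLA-C they gave 0.758, 0.766, 0.761 and 0.411. Of 44 alternative values over these and 8 other ratios between partner genes, 43 differed from the value reported at 3 significant digits, and 0 crossed 1. The last 2 lengths were added after the values were seen. Comparisons outside these ratios did reverse. TAP2 was 0.801 times PSMB8 per kilobase of the longest transcript but 2.09 times with no length division. HLA-B was below HLA-E by the longest transcript and above it by the canonical one. Percentiles stayed between 95.3 and 99.9 for B2M, HLA-B, HLA-C, HLA-E and TAPBP, and between 77.6 and 95.8 for TAP1 and TAP2. NLRC5 ranged from 25.3 to 58.9, above 50 with no length division or among all genes above 0, and HLA-F from 9.64 to 41.4. HLA-F gave no value at a minimum of 100, since its mean is below it. Matching by current symbol only changed no list's count. Of 53 alternative percentiles, 44 left a 95% exact binomial interval around the value reported. That interval treats the 13219 genes as random draws and served only as a yardstick. It is not an error of a level.

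No paired analysis was possible because the values are 1 mean over all 6 libraries. Leaving out a culture, a test of DOX against vehicle with DESeq2 or edgeR, and counts without a filter were not run for the same reason. What these values limit is error: none can be given for a level or a ratio.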
